A study of Mus musculus with 16 samples.

Results

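The genes described here encode the proteins of the mitochondrial ribosome (mitoribosome), measured by RNA sequencing in rod photoreceptors of ageing mice. They were taken by name: protein-coding genes whose symbol begins with Mrps or Mrpl and a number. 78 of the 45594 genes in the authors' gene table matched. One match is a second Mrps23 entry on an alternative assembly patch, so 77 distinct genes could be followed in the transcript counts and 72 of them passed the expression filter of at least 5 CPM (counts scaled to library size) in at least 4 libraries. The rods came from C57BL/6J mice carrying Nrlp-GFP, a transgene in which the Nrl promoter, active in rods, drives green fluorescent protein, and all 4 groups carry it. GFP-positive cells were sorted from dissociated retinas at 3 months (3M), 12 months (12M), 18 months (18M) and 24 months (24M) of age, with 4 libraries per age and 16 in all, labelled as biological replicates. The sources used here do not give the number of animals per library, so a p-value measures the spread between these libraries. In bulk samples, fewer cells of a type and less RNA per cell cannot be told apart.

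The mitoribosome translates the few messenger RNAs encoded by mitochondrial DNA, which specify core subunits of the respiratory chain and of ATP synthase. Its ribosomal RNAs come from the mitochondrial genome, whereas all of its proteins are encoded in the nucleus, made in the cytosol and imported. Rods hold dense mitochondria in the inner segment, which supply ATP for the dark current and for outer segment renewal.

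Sequences around the start sites of these genes were examined as a description, and a link to the age differences was not tested. Of the 77 genes, 68 have an entry in the RefSeq promoter table for GRCm38.p6, which spans 250 bases before to 50 bases after each start. Mrpl4, Mrpl13, Mrpl15, Mrpl19, Mrpl38, Mrpl54, Mrps28, Mrps34 and Mrps35 have none. 3 motifs known from promoters of mitochondrial genes were searched on both strands, and a gene was counted if any of its start sites held a match. GCGCNTGCG, the palindrome-like motif of nuclear respiratory factor 1 (NRF1), was found in 18 of 68 genes (26.5%) and in 9.68% of 17491 protein-coding genes in the table. CCGGAAG, the core recognised by ETS factors such as GABP, was found in 25 of 68 (36.8%) against 12.9%. AAGATGGC, the motif of YY1, was found in 12 of 68 (17.6%) against 3.57%. At least 1 of the 3 was found in 43 members (63.2%) against 22.9% of protein-coding genes. Median GC content of the 300-base windows was 58.5% for the members and 56.3% for all protein-coding start sites. Matches of NRF1 on opposite strands can overlap, since the motif is nearly its own reverse complement.

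The 120 bases before the start of Mrpl42, which gave the clearest age difference below, and of Mrps33 hold no match. After its start Mrps33 holds an ETS match, at bases 39 to 45. The 120-base stretches are shown beside those of Mrpl32 and Mrpl43, chosen because they hold several matches, with matches in capitals (5′ to 3′ in gene orientation, GRCm38.p6, all on the minus strand). Mrpl42 lies at chr10:95501950-95502069, Mrps33 at chr6:39810937-39811056, Mrpl32 at chr13:14613038-14613157 and Mrpl43 at chr19:45006443-45006562. In Mrpl32 the capitals mark an NRF1 match on both strands and a further one, and in Mrpl43 an NRF1 match followed by ETS matches.
Mrpl42: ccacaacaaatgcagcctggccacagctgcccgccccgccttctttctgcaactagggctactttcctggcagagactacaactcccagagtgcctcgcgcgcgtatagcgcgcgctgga
Mrps33: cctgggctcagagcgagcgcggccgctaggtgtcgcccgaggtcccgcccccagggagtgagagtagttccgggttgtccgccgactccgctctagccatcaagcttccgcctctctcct
Mrpl32: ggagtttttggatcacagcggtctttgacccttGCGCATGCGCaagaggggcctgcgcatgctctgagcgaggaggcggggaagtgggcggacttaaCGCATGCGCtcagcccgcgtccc
Mrpl43: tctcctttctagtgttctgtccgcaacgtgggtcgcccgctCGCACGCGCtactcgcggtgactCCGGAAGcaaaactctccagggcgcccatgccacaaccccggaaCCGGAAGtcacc

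All 8 of the forward-strand AAGATGGC matches in members lay within the first 50 transcribed bases, and among all protein-coding start sites 263 of 438 forward matches did. Mrpl42 and Mrps18a are among the 8. The 30-base stretches that hold these matches are shown with the motif in capitals, because this is the only one of the 3 motifs found in the window of Mrpl42, where it occupies bases 28 to 35 counted from the start.
Mrpl42: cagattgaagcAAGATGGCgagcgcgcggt
Mrpl35: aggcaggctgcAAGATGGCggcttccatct
Mrpl37: ctgcacgggcaAAGATGGCggcgtccaggt
Mrpl49: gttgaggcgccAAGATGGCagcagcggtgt
Mrps18a: aggtgcgttccAAGATGGCggccctcaggg
Mrps24: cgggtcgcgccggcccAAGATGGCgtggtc
Mrps27: tggtgcgctccAAGATGGCggctcccatgg
Mrps7: tgacagcggccAAGATGGCtgcccccgcgc
These stretches lie at chr10:95501904-95501933 (Mrpl42), chr6:71823743-71823772 (Mrpl35), chr4:107066822-107066851 (Mrpl37), chr19:6057721-6057750 (Mrpl49), chr17:46111004-46111033 (Mrps18a), chr11:5707652-5707681 (Mrps24), chr13:99344789-99344818 (Mrps27) and chr11:115604147-115604176 (Mrps7). A match describes letters, not a bound factor.

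Levels were compared between genes as CPM per kilobase of annotated transcript. Over the 16 libraries the 77 members had a median of 13.3 CPM per kb, with gene means from 1.82 to 50.0, and the 10303 protein-coding genes that passed the filter had a median of 13.6. The highest were Mrps5, a small-subunit protein near the messenger path, at 50.0 ± 5.52 CPM per kb (SD, n = 16), and Mrpl48, of the central protuberance of the large subunit, at 48.4 ± 12.0. Mrps18a (31.4 ± 4.49), Mrpl33 (30.2 ± 2.38) and Mrpl54 (29.6 ± 5.98) followed. Among these, Mrps5 and Mrpl48 lay within each other's spread, as did Mrps18a, Mrpl33 and Mrpl54. The lowest were Mrps16 at 1.82 ± 0.292 CPM per kb, Mrpl36 at 2.54 ± 0.696, Mrpl57 at 3.15 ± 0.391, Mrps12 at 4.42 ± 1.05 and Mrpl11 at 4.64 ± 0.688.

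**Figure D1:**
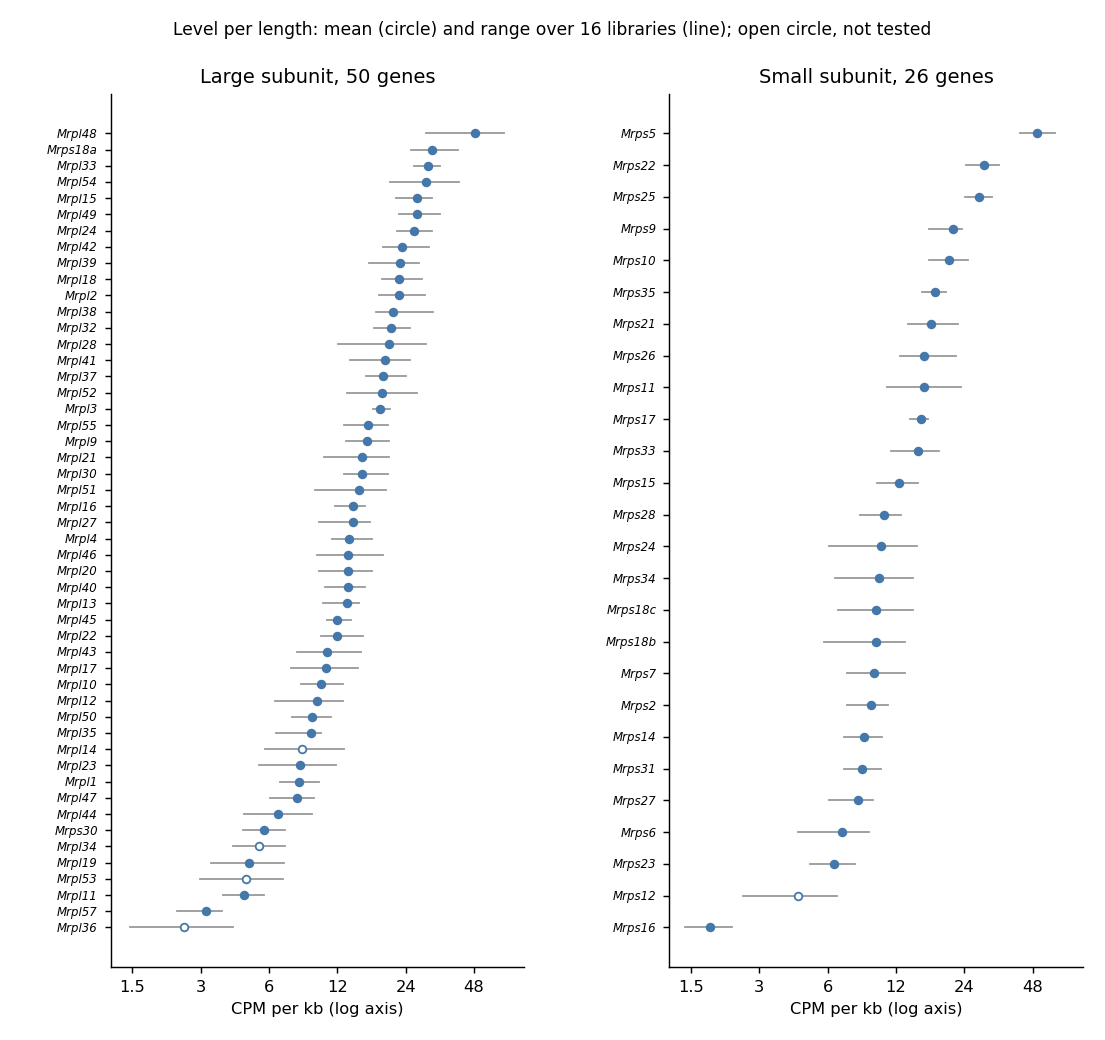
Level of each member per length (CPM per kb, log axis) in the large subunit (left) and the small subunit (right); circles are means and lines the range over 16 libraries, and open circles are genes outside the expression filter. Mrps5 (50.0) and Mrpl48 (48.4) lie at the top of their panels, and Mrps16 (1.82) and Mrpl36 (2.54) at the bottom.

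Part of these reads came from transcripts that do not encode the protein. Transcripts annotated as retained intron held 17.6 to 20.0% of the members' counts, by library, and protein-coding transcripts held 69.1 to 74.0%. Retained-intron transcripts made up more than 50% of the counts of 9 members, among them Mrps5 (62.8%), Mrps10 (75.0%), Mrps11 (75.4%) and Mrpl13 (64.4%). Of the 5 members with the highest levels, protein-coding transcripts held 37.2% of the counts of Mrps5, 53.6% of Mrpl48 and 49.2% of Mrps18a. Such transcripts held only 4.32% of the counts of Mrpl33, and 72.9% of those of Mrpl54. For Mrpl42 the annotation has a single transcript, of 666 bases. Among the members tested, 35 overlap another annotated gene and 21 overlap a protein-coding gene on the opposite strand. The library kit keeps strand, but the sources used here do not say whether the counting used it. Mrpl42 and Mrps33 are not among the 35, whereas Mrps30 and Mrpl19 share an opposite-strand stretch with B430218F22Rik and Gcfc2. Mrpl33 overlaps Gm43809 on the same strand over 67447 bases.

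The paralogous Mrps18 genes encode 3 proteins related to bacterial S18. In mammals MRPS18A sits in the large subunit and MRPS18B and MRPS18C in the small subunit. Mrps18a was the most abundant at 31.4 ± 4.49 CPM per kb (n = 16), and Mrps18b (9.76 ± 1.70) and Mrps18c (9.83 ± 1.97) did not differ beyond their spread. In the edgeR fit of all libraries none of the 3 passed the test at any age; in an edgeR fit of 13 libraries, described below, Mrps18a was called lower at 12 months (log2 difference -0.28, adjusted p = 0.016). Between 3 and 24 months their log2 fold changes were -0.0061 for Mrps18a (SE 0.14), -0.0035 for Mrps18b (SE 0.19) and -0.19 for Mrps18c (SE 0.16).

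At 24 months against 3 months, 1 member had changed, Mrpl42, which was lower. It encodes a mitochondria-specific protein of the large subunit and lies at chr10:95480805-95501940 on the minus strand (GRCm38). Its level was 20.2, 19.1, 17.8 and 18.2 CPM in the 3-month libraries and 12.7, 14.1, 13.5 and 14.5 CPM in the 24-month libraries. The groups did not overlap, and the means were 18.8 ± 1.07 and 13.7 ± 0.79 CPM (SD, n = 4 each). The difference was -0.46 on the log2 scale (SE 0.09), a fall of 27.2%, with an adjusted p of 0.0052 by edgeR's quasi-likelihood test. Over all 12177 genes tested, 1.6% were called lower and 2.65% higher, so in this fit the members' count of 1 lower and 0 higher of 72 is near or below that background. Other settings, taken up below, called more. The 13-library edgeR fit called 18 of 71 lower and 1 higher, beside 11.4% and 12.2% of all genes. limma voom with quality weights called 22 of 72 lower and 1 higher, beside 13.6% in each direction. The call of Mrpl42 was kept when any single library was left out (adjusted p 0.0017 to 0.026) and the estimate ranged from -0.49 to -0.42.

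The remaining members nearest to the threshold at 24 months were also lower. Mrps33, a small-subunit protein found only in mitochondria, read 14.5, 12.5, 13.8 and 13.1 CPM at 3 months and 9.25, 10.2, 12.1 and 10.6 CPM at 24 months. Its 24-month libraries all lay below its 3-month libraries, with a log2 difference of -0.36 (SE 0.10, edgeR adjusted p = 0.072). Mrps30, which despite its name is a protein of the large subunit, read 23.4, 19.8, 20.8 and 22.3 CPM at 3 months and 15.3, 17.7, 18.2 and 17.1 CPM at 24 months. These groups did not overlap either, and the log2 difference was -0.34 (SE 0.11, edgeR adjusted p = 0.11). Mrpl19, a large-subunit protein with a bacterial counterpart, read 14.5, 14.4, 13.0 and 15.2 CPM against 12.1, 10.5, 13.8 and 11.9 CPM. There 24-month replicate 3 reached into the 3-month range, and the log2 difference was -0.24 (SE 0.09, edgeR adjusted p = 0.19). DESeq2 called Mrps30 and Mrps33 as well as Mrpl42, beside 2.78% of all genes called lower. edgeR with the length slope described below as a term called the same 3, beside 5.28% of all genes.

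**Figure D2:**
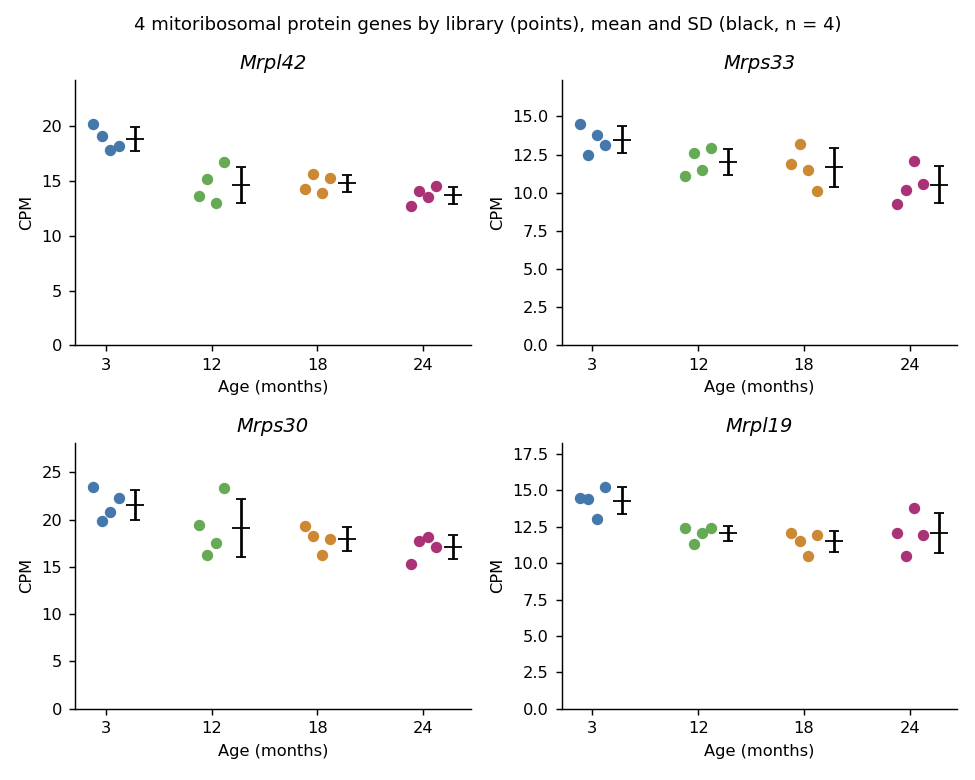
CPM of Mrpl42, Mrps33, Mrps30 and Mrpl19 in each library (points) by age in months, with the mean and SD of each age in black (n = 4). All 4 of the 24-month points of Mrpl42 (12.7 to 14.5) lie below its 3-month points (17.8 to 20.2).

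Across all 72 members tested, 55 had an estimate below 0 at 24 months and 17 above, and the median was -0.12 on the log2 scale. Over the 16 fits that left out 1 library this median ran from -0.16 to -0.07, the latter without 24-month replicate 1. Over all genes tested 47.3% were below 0 and the median was 0.01. At an unadjusted p under 0.05, 9 members were lower and 0 higher, beside 6.7% and 7.31% of all genes. The 24-month libraries lay wholly below the 3-month libraries for 5 members (Mrpl15, Mrpl30, Mrpl42, Mrps30 and Mrps33) and wholly above for 0; over all genes these shares were 5.32% and 5.28%. The largest estimates above 0 belonged to Mrpl1, a large-subunit protein, at 0.22 (SE 0.12, edgeR adjusted p = 0.48) and Mrpl23, near the exit tunnel, at 0.13 (SE 0.18, adjusted p = 0.86). The estimate of Mrpl23 turned to -0.02 without 24-month replicate 3.

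At 18 months against 3 months Mrpl42 was again the 1 member called, lower by an adjusted p of 0.048 in edgeR. Its 18-month libraries held 14.3, 15.6, 13.9 and 15.3 CPM, all below the 3-month range, with a log2 difference of -0.35 (SE 0.09). The call was lost in 13 of the 16 fits that left out 1 library (adjusted p 0.019 to 0.15) and without an expression filter (0.14), although over the left-out libraries the estimate stayed between -0.38 and -0.32. Mrpl19 read 12.1, 11.5, 10.5 and 11.9 CPM at 18 months, below all its 3-month libraries, with a log2 difference of -0.31 (SE 0.09, edgeR adjusted p = 0.098). Of all genes, 0.961% were called lower and 1.68% higher. 60 of 72 members were below 0 and 12 above, with a median of -0.16, beside 48.4% of all genes below 0 and a median of 0.01. The members' median ran from -0.19 to -0.08 over the fits that left out 1 library, the latter without 18-month replicate 3. At an unadjusted p under 0.05, 7 members were lower and 0 higher, beside 5.82% and 6.58% of all genes. The 18-month libraries lay wholly below the 3-month libraries for 8 members and wholly above for 0, against 6.46% and 7.22% of all genes. Among the 8 was Mrpl12, a stalk protein that recruits translation factors, at 11.3, 10.7, 7.22 and 10.7 CPM against 12.2, 13.7, 13.0 and 15.0 CPM, with a log2 difference of -0.43 (SE 0.19, edgeR adjusted p = 0.33).

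At 12 months against 3 months edgeR called 0 members higher and 0 lower, where 0.411% of all genes were called lower and 0.977% higher. At an unadjusted p under 0.05, 4 were lower (Mrpl42, Mrpl22, Mrpl19 and Mrpl39) and 0 higher, beside 4.39% and 4.75% of all genes. DESeq2 called 1, Mrpl42, lower, beside 0.813% of all genes. limma voom with sample quality weights called 42 lower and 2 higher, beside 24.2% and 23.6%, a count taken up below with the libraries that stand apart. Mrpl42 read 13.6, 15.2, 13.0 and 16.7 CPM at 12 months, below all 3-month libraries, with a log2 difference of -0.37 (SE 0.09, edgeR adjusted p = 0.058). Mrpl22, at the exit tunnel through which the new chain leaves the ribosome, read 7.41, 6.94, 7.49 and 7.82 CPM against 8.93, 8.49, 9.82 and 9.68 CPM, with a log2 difference of -0.32 (SE 0.11, adjusted p = 0.31). Estimates lay below 0 for 65 of 72 members and above 0 for 7, with a median of -0.14, beside 50.6% of all genes below 0 and a median of -0.0032. The members' median was -0.23 without 12-month replicate 4 and -0.09 without 12-month replicate 2, the ends of the range over the fits that left out 1 library. The 12-month libraries lay wholly below the 3-month libraries for 3 members (Mrpl19, Mrpl22 and Mrpl42) and wholly above for 0, against 2.67% and 2.42% of all genes.

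Between the later ages no member was called by edgeR. At 18 months against 12 months edgeR called 0 members, 0% of all genes lower and 0.00821% higher. At an unadjusted p under 0.05, 1 member was lower, Mrps22, and 0 higher, beside 0.706% and 1.52% of all genes. DESeq2 called 0, and limma voom with quality weights called 19 higher and 2 lower, beside 12.4% and 6.79% of all genes. At 24 months against 18 months edgeR called 0 members, and 0% of all genes in either direction. At an unadjusted p under 0.05, 2 members were higher, Mrps22 and Mrpl3, and 0 lower, beside 3.32% and 2.27% of all genes. DESeq2 called 0, and limma voom with quality weights called 1 higher and 3 lower, beside 1.79% and 2.97% of all genes. Mrps22, a small-subunit protein altered in inherited mitochondrial disease, read 34.5, 39.0, 34.6 and 34.3 CPM at 18 months and 40.2, 45.0, 38.0 and 41.5 CPM at 24 months. Its 24-month libraries overlapped its 18-month range, and the log2 difference was 0.21 (SE 0.07, edgeR adjusted p = 0.78). The median member difference was 0.01 between 12 and 18 months and 0.03 between 18 and 24 months, and neither kept its sign: leaving out 1 library gave -0.04 to 0.10 (below 0 in 6 of 16 fits) and -0.03 to 0.07 (below 0 in 2 of 16, without 18-month replicate 3 and without 24-month replicate 3), and the 13 libraries described below gave 0.16 and -0.10.

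**Figure D3:**
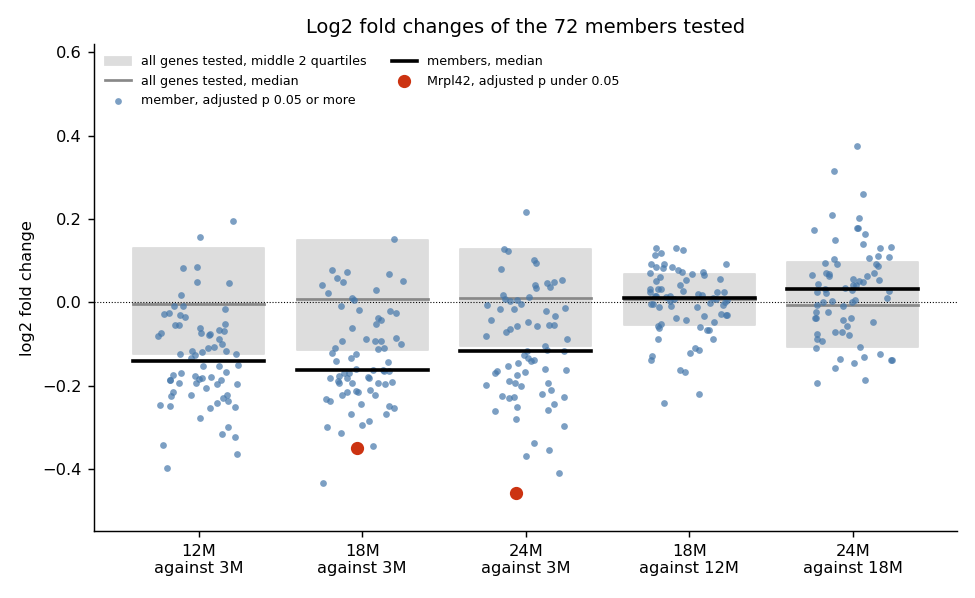
Log2 fold change of each of the 72 members tested in 5 comparisons (points), with the members' median (black) and the median and middle 2 quartiles of all genes tested (grey). The members' medians lie at -0.14, -0.16 and -0.12 against 3 months and at 0.01 and 0.03 between later ages; Mrpl42 (red) is the member with an adjusted p under 0.05 at 18 and 24 months.

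With age in months as a linear term, 2 members fell and 0 rose, beside 1.95% of all genes falling and 2.84% rising. Mrpl42 fell by 0.021 per month on the log2 scale (SE 0.0043), or by 0.44 over 21 months, with an edgeR adjusted p of 0.0065. Mrps33 fell by 0.016 per month (SE 0.0045), with an edgeR adjusted p of 0.048, and lost the call in 13 of the 16 fits that left out 1 library (adjusted p 0.019 to 0.16) and without an expression filter (0.12). Its values at the middle ages were 11.1, 12.6, 11.5 and 12.9 CPM at 12 months and 11.9, 13.2, 11.5 and 10.1 CPM at 18 months, which overlapped each other. Mrps30 had a slope of -0.016 (SE 0.0046, edgeR adjusted p = 0.055). At an unadjusted p under 0.05, 8 members had a slope below 0 and 0 above, beside 7.17% and 7.46% of all genes. The F-test of any difference among the 4 ages called 1 member, Mrpl42 (edgeR adjusted p = 0.022), beside 2.82% of all genes. That call was lost in 5 of the 16 fits that left out 1 library, those without any one of the 3-month libraries or without 24-month replicate 1, and without an expression filter.

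The median of the members moved from library to library, also within an age, and some members went against it. For each library the median deviation of the members from their own means over all libraries was taken. At 3 months it was 0.07, 0.08, 0.09 and 0.15 on the log2 scale, so all 3-month libraries lay on the high side. At 12 months it was -0.09, -0.13 and -0.19 in replicates 1 to 3 and 0.20 in replicate 4, and at 18 months 0.01, 0.06, -0.19 and -0.01. At 24 months it was -0.13, -0.02, 0.19 and -0.06. In 12-month replicate 3, 60 of 72 members lay below their own mean, and in 12-month replicate 4, 14 did. In 24-month replicate 3, 18 did, although its median was 0.19. Among those 18 were Mrpl48 at 39.3 CPM and Mrps9 at 25.3 CPM. The 3-month range of 0.07 to 0.15 was therefore exceeded by 12-month replicate 4 and by 24-month replicate 3. The SD of this median within an age, pooled over the ages, was 0.13, similar in size to the members' median differences between ages.

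A property of the whole library moved with this. The length slope of a library is the slope of the log2 deviations of all genes tested on log2 transcript length. It ran from -0.041 to -0.016 in the 3-month libraries and from -0.081 to 0.084 in the others. 24-month replicate 3 had the lowest slope (-0.081) and the second highest member median, and 18-month replicate 3 had the highest slope (0.084) and the lowest member median. The members are short, with a median transcript of 1402 bases against 2676 for all genes tested. With the slope as a term in the edgeR fit the members' medians were -0.03 at 12 months, -0.06 at 18 months and -0.04 at 24 months, and Mrpl42 was still called lower at 18 and 24 months. The shorter 36 members had a median of -0.13 at 24 months and the longer 36 had -0.08. The part of the length slope in these differences was not tested beyond that fit.

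**Figure D4:**
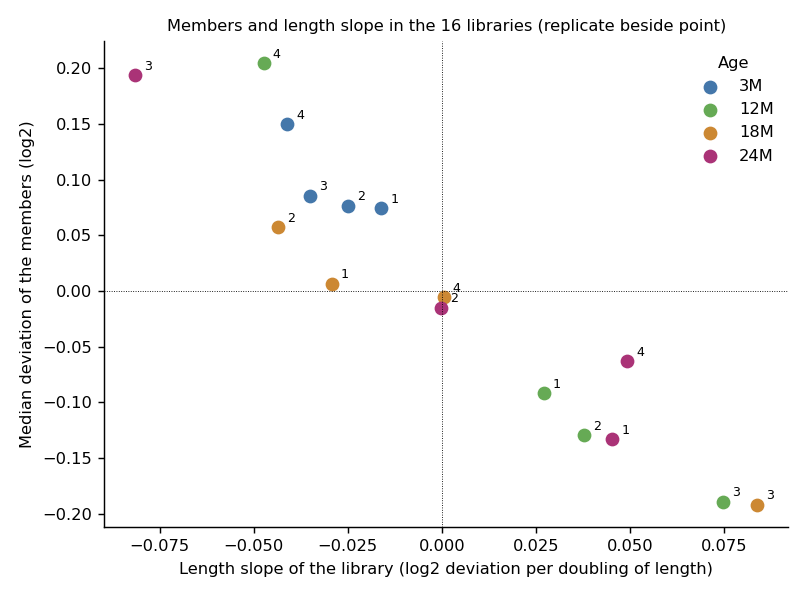
Median log2 deviation of the members in each of the 16 libraries against the length slope of that library (log2 deviation of all genes tested per doubling of transcript length), coloured by age, with the replicate number beside each point. The 3-month libraries lie between 0.07 and 0.15; 12-month replicate 4 (0.20) and 24-month replicate 3 (0.19) lie at the upper left, and 18-month replicate 3 (-0.19) at the lower right.

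12-month replicate 4, 18-month replicate 3 and 24-month replicate 3 are also the libraries that the authors' normalized table leaves out, and the sources used here give no reason. Without these 3, with 71 members tested, edgeR called 38 members lower at 12 months, beside 18.8% of all genes. At 24 months it called 18 lower, beside 11.4% of all genes. It called 2 higher at 12 months, Mrpl48 (log2 difference 0.33) and Mrpl1 (0.24), and 1 at 24 months. Of all genes, 19.5% and 12.2% were called higher at these ages. limma voom with sample quality weights on all 16 libraries called 42 lower at 12 months, beside 24.2% of all genes, and 22 lower at 24 months, beside 13.6%. 38 members were called lower at 12 months by both settings and 17 at 24 months. Both settings use the same 13 libraries, so the overlap is not an independent check. The share of all genes called by both was not taken. At 18 months the 13 libraries again gave Mrpl42 alone, beside 2.17% of all genes called lower. The number of members called thus differed with those 3 libraries, while Mrpl42 at 24 months was called with them and without them (adjusted p = 0.0020 without, by edgeR).

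Among the members called without the 3 libraries were Mrpl12, Mrpl52 and Mrpl44. Mrpl52, a mitochondria-specific large-subunit protein, read 6.51, 6.26, 6.10 and 11.7 CPM at 12 months against 8.64, 10.1, 9.61 and 10.2 CPM at 3 months; the 11.7 is replicate 4. On the 13 libraries its log2 difference was -0.62 at 12 months (SE 0.12, edgeR adjusted p = 0.0031) and -0.54 at 24 months (SE 0.12, adjusted p = 0.0070). Mrpl44, a protein near the exit tunnel, read 7.82, 6.81, 7.27 and 11.8 CPM at 12 months, the last again replicate 4, against 10.4, 11.5, 9.41 and 12.9 CPM at 3 months. Its log2 difference on the 13 libraries was -0.60 at 12 months (SE 0.13, edgeR adjusted p = 0.0045). Mrpl12 was at -0.51 at 12 months on the 13 libraries (SE 0.10, edgeR adjusted p = 0.0025). Mrpl1 was called higher at 24 months in that fit, at 0.32 (SE 0.09, edgeR adjusted p = 0.021).

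The authors' deposited table of differences covers 11826 genes and 72 of the members. By the authors' deposited table, 23 members (31.9%) have an adjusted p under 0.05 in an F-test over ages, beside 3156 genes in all (26.7%). In the authors' deposited table Mrps33 comes first (adjusted p = 0.0042), followed by Mrpl19 (0.0049), Mrpl52 (0.0057) and Mrpl42 (0.0059). The authors' deposited table gives Mrpl42 log2 differences of -0.44, -0.33 and -0.45 at 12, 18 and 24 months. For Mrpl19 it gives -0.69, -0.40 and -0.79, where the 13-library edgeR fit gave -0.26, -0.27 and -0.31. Its medians over the members are -0.29, -0.08 and -0.17, beside -0.0021, 0.02 and 0.01 over all its genes.

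By structural role, calls were confined to Mrpl42 and Mrps33 in the edgeR fit of all libraries, and no role list held another. At 24 months the median estimate was -0.10 over the 46 large-subunit genes tested, 37 of them below 0, and -0.11 over the 25 small-subunit genes, 17 below 0. Mrps36, now known as a component of the alpha-ketoglutarate dehydrogenase complex, was counted with neither. The 43 genes with a bacterial counterpart had a median of -0.11 and the 29 found only in mitochondria -0.14. The stalk proteins Mrpl10, Mrpl11 and Mrpl12 were all below 0, with a median of -0.19. The 7 exit-tunnel genes had a median of -0.08, the 6 of the central protuberance -0.09 and the 5 tested of the decoding and messenger path -0.13. The 16 genes with known human disease variants had a median of -0.13, with 12 below 0. By promoter motif, the median at 24 months was -0.13 over the 38 tested genes with any of the 3 motifs and -0.12 over the 25 without, and it was -0.03 over the 10 with AAGATGGC and -0.14 over the 53 without. For AAGATGGC the medians with and without it were -0.14 and -0.15 at 12 months and -0.11 and -0.16 at 18 months.

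Of 90 tested genes on the lists of those that work with the mitoribosome, edgeR and DESeq2 called 0 in each comparison and with age. At 24 months against 3 months 4 had an unadjusted p under 0.05 and were lower, and 2 were higher, beside 6.7% and 7.31% of all genes. limma voom with quality weights called 9 lower and 6 higher, beside 13.6% of all genes in each direction. At 12 months it called 33 lower and 15 higher, beside 24.2% and 23.6% of all genes, and at 18 months 0. The 6 mitoribosome subunits of other names, such as Dap3 and Ptcd3, had a median log2 difference of -0.08 at 24 months, with 4 below 0. The 15 translation factors, among them the elongation factor Tufm, had -0.05 with 9 below 0, and the 24 assembly factors tested had -0.05 with 17 below 0. The 18 mitochondrial aminoacyl-tRNA synthetases had 0.02 with 6 below 0, and the 9 genes of mitochondrial DNA transcription and copying had -0.01 with 5 below 0. The 9 mitochondrial proteases and chaperones had -0.16 with 5 below 0. The 9 regulators tested had 0.01 with 3 below 0. Among them Nrf1 read 104 CPM at 3 months and 107 CPM at 24 months (log2 difference 0.05, SE 0.06, edgeR adjusted p = 0.85), and Yy1 read 49.7 and 52.9 CPM (0.09, SE 0.08, adjusted p = 0.71).

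Other energy and protein-synthesis families stood beside the mitoribosome as follows. The 74 cytosolic ribosomal protein genes tested had medians of -0.18, -0.26 and -0.25 at 12, 18 and 24 months against 3 months, with 71, 72 and 71 below 0. The 42 nuclear complex I genes had -0.10, -0.13 and -0.20. The 15 protein-coding and ribosomal RNA genes of the mitochondrial genome had 0.27, 0.16 and 0.17, with 0, 4 and 3 below 0. edgeR called 0 genes of these 3 families against 3 months. At 24 months 11 cytosolic ribosomal and 6 complex I genes had an unadjusted p under 0.05 and were lower, against 0 of the mitochondrial genome and 6.7% of all genes. DESeq2 called 1, a complex I gene, lower, beside 2.78% of all genes. limma voom with quality weights called 54 cytosolic ribosomal and 24 complex I genes lower and 2 of the mitochondrial genome higher, beside 13.6% of all genes in each direction. At 12 months it called 58 cytosolic ribosomal and 21 complex I genes lower, beside 24.2% of all genes. Called higher there were 1 cytosolic ribosomal gene, 1 complex I gene and 7 of the mitochondrial genome, beside 23.6%. With the length slope as a term the medians moved to 0.02, -0.14 and -0.13 for the cytosolic ribosome and to 0.07, 0.02 and -0.03 for the mitochondrial genome. For complex I they moved to 0.04, -0.02 and -0.11. That fit called 1 cytosolic ribosomal gene lower at 18 months, beside 2.0% of all genes. It called 4 complex I genes lower at 24 months, beside 5.28%. These comparisons share the 3-month libraries and are given side by side only.

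**Figure D5:**
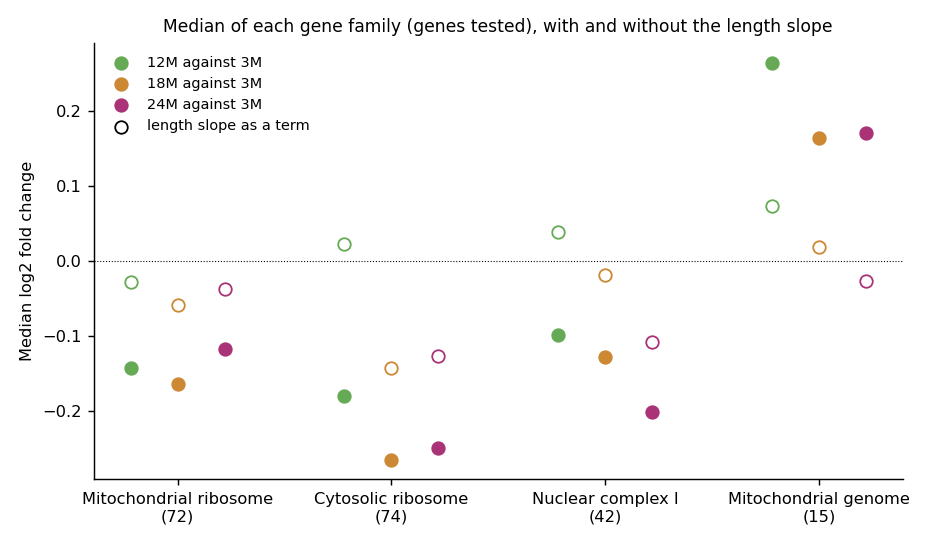
Median log2 fold change of 4 gene families (number of genes tested in brackets) at 12, 18 and 24 months against 3 months; filled circles are the fit of all libraries and open circles the fit with the length slope as a term. The members lie at -0.14, -0.16 and -0.12 (filled) and at -0.03, -0.06 and -0.04 (open), and the mitochondrial genome lies above 0 at 0.27, 0.16 and 0.17 (filled).

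The 5 genes outside the expression filter were Mrpl14, Mrpl34, Mrpl36, Mrpl53 and Mrps12. Over all libraries Mrpl36, the counterpart of the smallest bacterial large-subunit protein, ranged from 1.35 CPM in 18-month replicate 3 to 3.85 CPM in 3-month replicate 4. Mrps12, at the decoding centre, ranged from 1.80 CPM in 12-month replicate 3 to 4.79 CPM in 12-month replicate 4. Among the tested members the coefficient of variation over the 16 libraries had a median of 12.3% (4.95 to 24.7%), against 14.2% for all genes tested, with Mrpl3 and Mrpl33 the steadiest.

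Total counts per library ran from 20579144 to 28791777, of which the members held 29730 to 41572. The rod markers Gnat1, Nrl, Pde6b, Cnga1 and Sag summed to 12900 to 17500 CPM. Their median estimate at 24 months was -0.31, with 0 called by edgeR in the fit without the length slope. With the length slope as a term edgeR called 2 of the 5 lower at 18 and at 24 months, beside 2.0% and 5.28% of all genes. The 7 Muller glia markers summed to 110.0 to 221 CPM at 3 months and 148 to 253 CPM at 24 months. In the highest library, of 12 months, they summed to 395 CPM. All 7 had estimates above 0 at each later age, with 0 called by edgeR or DESeq2. At an unadjusted p under 0.05, 1 was higher at each later age, beside 4.75%, 6.58% and 7.31% of all genes. limma voom with quality weights called 1, 1 and 2 higher at 12, 18 and 24 months, beside 23.6%, 5.35% and 13.6%. It called 3 rising with age, beside 9.87%. Cone markers summed to 35.3 to 82.0 CPM, bipolar markers to 354 to 419, amacrine markers to 86.5 to 131 and endothelial and pericyte markers to 25.2 to 44.5. Ganglion cell, astrocyte, microglia, pigment epithelium and horizontal cell markers each summed to at most 13.9, 8.04, 5.45, 4.15 and 0.935 CPM. The part of other cell types in the members' values was not tested.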

How the data were processed

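The authors deposited estimated counts per transcript for 16 libraries, a gene table in CPM (a signal scaled by an effective library size) and a table of log2 differences, F scores and p-values per gene, per the file headers. kallisto 0.42.5, edgeR 3.13.9 and limma 3.32.2 are named in the submitters' processing notes, without a role. The sources used here do not say how the authors summed transcripts to genes: plain sums came within 5% of the authors' gene signal in every library for 30 of the 72 members tested.

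Here counts were summed to 45038 genes by the GENCODE M21 annotation of GRCm38 (111896 of 113468 transcripts matched; the rest held 0.73 to 1.082% of counts), rounded, and fitted with edgeR 4.0.16 (TMM, quasi-likelihood, the 4 ages as groups over all 16 libraries) in R 4.3.3. Genes needed at least 5 CPM in at least 4 libraries. Benjamini-Hochberg adjustment ran over all 12177 genes tested and calls were under 0.05; any p printed beside n = 4 is from this model unless limma 3.58.1 or DESeq2 1.42.0 is named. CPM use the TMM effective library size. Promoter sequences are from RefSeq (GRCm38.p6). The fit was tested on simulated counts without a length slope or libraries that stand apart, so that test does not cover these features.

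Members named are those called, the 4 with the smallest p in each direction of a comparison, the 5 highest and lowest levels, the Mrps18 family and genes outside the filter; Mrpl52, Mrpl44, Mrpl12 and those named for non-overlap, retained introns or sequence were chosen after their values were seen. The members and lists were chosen with earlier results of these data known. Cytosolic ribosomal proteins were taken as Rps or Rpl, a number and at most the ending a, l, x or l1, which keeps kinases named Rps6k out. Mrp63, on the list of subunits of other names, is the member Mrpl57 and was not counted there. Replicate numbers gave no sign of pairing, as given with the alternatives below. A gene on the marker lists is not reported here.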

Additional observations from a re-analysis of the deposited data

Results flagged for a closer look

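In 14 of 96 sets of 4 libraries of 1 age, a single library stood apart from the other 3 by Dixon's criterion. Chance gives about 1 in 20 independent sets. These sets are not independent, since many members shifted in the same library, so the count cannot be set against that rate. 24-month replicate 3 was the library that stood apart for 5 members. Mrpl48 read 39.3 CPM there against 58.9 to 59.9 in the others, Mrps9 25.3 against 35.7 to 36.1, Mrpl13 18.0 against 25.4 to 25.7 and Mrps14 12.0 against 12.9 to 13.0, while Mrps11 was high at 18.4 against 12.8 to 13.6. 18-month replicate 3 stood apart for Mrps9 (36.3 CPM) and Mrpl15 (44.5 CPM), and 18-month replicate 2 for Mrps22 (39.0 CPM) and Mrpl3 (27.2 CPM). At 3 months replicate 4 stood apart for Mrpl13 (21.7 CPM), replicate 2 for Mrpl3 (27.6 CPM) and Mrps14 (12.7 CPM), and replicate 1 for Mrpl27 (12.3 CPM). The median deviation of the members at 3 months was 0.15 on the log2 scale in replicate 4 against 0.0745 to 0.0857 in the others.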

How the results depend on the processing

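Counts of members called at 12, 18 and 24 months are against 3 months. DESeq2 gave 1, 2 and 3 lower, beside 0.813%, 1.63% and 2.78% of all genes. limma voom with quality weights gave 42, 3 and 22 lower, beside 24.2%, 3.76% and 13.6% of all genes. It gave 2 higher at 12 and 1 at 24 months, beside 23.6% and 13.6%. At 18 against 12 months it gave 19 higher and 2 lower, beside 12.4% and 6.79%, with a median of 0.16. At 24 against 18 months it gave 1 higher and 3 lower, beside 1.79% and 2.97%. With age 14 fell and 1 rose (9.74% and 9.87% of all genes), and 42 passed the F-test (44.6% of all genes). The 13 libraries gave 38 and 18 lower at 12 and 24 months, beside 18.8% and 11.4% of all genes. They gave 2 and 1 higher at these ages, beside 19.5% and 12.2%. At 18 against 12 months they gave 1 higher, beside 1.42%. With age 4 fell (3.79% of all genes), and 24 passed the F-test (29% of all genes). The medians were 0.16 at 18 against 12 months and -0.10 at 24 against 18 months. The length slope as a term gave 3 lower at 24 months, beside 5.28% of all genes. Without a filter 0 were lower at 18 months, 1 fell with age (Mrps33 lost its call) and 0 passed the F-test. Beside these, 0.479%, 0.811% and 1.27% of all genes were called. Same-numbered libraries correlated from -0.744 to 0.726 over 24 pairs, 11 of them over 0.1. Only 4 of 16 libraries correlated best with their own number, so the numbers were not taken as pairs. With the replicate block 0 members were lower at 18 months and 1 fell with age, Mrps33 losing its call. Beside these, 0.805% and 1.6% of all genes were called. Leaving out 1 library gave 0 to 2 lower at 12 months, 0 to 1 at 18 months and 1 to 3 at 24 months. It gave 1 to 4 falling with age and 0 to 1 in the F-test. The 2 at 12 months came without 12-month replicate 4, beside 2.13% of all genes. Without 24-month replicate 3 came the 3 at 24 months and the 4 with age, beside 1.97% and 3.02%.

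Some uncalled estimates changed sign. With the length slope Mrpl1, Mrpl48, Mrps9 and Mrpl13 were at -0.00201, -0.0528, -0.0484 and -0.124 at 12 months, Mrps9 at -0.000463 at 18 months and Mrpl48 at -0.0367 at 24 months. On the authors' gene signal, an alternative chosen after seeing the data, Mrpl13 was at -0.11 and -0.10 at 12 months with pseudocounts of 0.5 and 2. Mrpl23 at 24 months was at -0.0995 with quality weights and -0.0208 on the 13 libraries, and ran from -0.0191 (without 24-month replicate 3) to 0.208 over the fits that left out 1 library. The slope of Mrpl4 per month was -0.000981 on the 13 libraries and ran from -0.00121 (without 24-month replicate 3) to 0.0057 over the fits that left out 1 library. The cause was not tested. A minimum of 1 CPM in place of 5 CPM left 0, 1 and 1 members lower at 12, 18 and 24 months; the part of depth in the calls was not tested beyond that.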
